A study of Macaca fuscata with 18 samples.

Results

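The genes described here encode secreted and signaling proteins that reactive astrocytes are known to make. The 10 listed genes were SERPINA3, CHI3L1, CP, CD109, LCN2, OSMR, STAT3, SOCS3, SPARC and S100A10. They were chosen by symbol, and where a symbol had several transcript rows the transcript with the highest mean counts scaled to library size (CPM) stood for the gene. Of the 10 symbols, 9 had a row among 19747 genes, with 13 of 29686 transcript rows, and LCN2 was not analysed here. RNA sequencing was done on the SVZa, the subventricular zone on the striatal side of the anterior horn of the lateral ventricle, from Japanese macaques (Macaca fuscata) of 4 to 6 years of age. In the 3 ischemia monkeys (MK503, MK507 and MK506) blood flow to the whole brain was stopped by clipping arteries for 18 min, and in the 3 sham monkeys (MK504, MK501 and MK508) the same surgery was done without clipping. All 6 were killed at day 7 after surgery, and 3 adjacent fragments, A1, A2 and A3, were sequenced from each as separate libraries. The libraries are of whole tissue, so fewer cells of a type and less RNA per cell cannot be told apart.

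Astrocytes answer injury by a change of state, called reactive, in which the filament gene GFAP and genes of acute phase proteins are switched on. A main route to this state runs through cytokines of the interleukin-6 family. Oncostatin M binds the receptor encoded by OSMR together with gp130, the product of IL6ST, the receptor activates JAK kinases, and these phosphorylate the transcription factor STAT3. SOCS3 is a STAT3 target that blocks the receptor complex and closes the loop. The secreted products include the protease inhibitor alpha-1-antichymotrypsin (SERPINA3), the chitinase-like glycoprotein YKL-40 (CHI3L1) and the copper-carrying ferroxidase ceruloplasmin (CP). SPARC is secreted and acts on the extracellular matrix and on cell adhesion. CD109 sits on the cell surface and binds TGF-beta, and S100A10 is the partner of annexin A2 at the plasma membrane. In mice, S100a10 and Cd109 are used as markers of astrocytes that react to ischemia, and Serpina3n and Lcn2 as markers of reactive astrocytes in general.

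The libraries held 18076257 to 74551396 counts in ischemia and 19091839 to 57461603 in sham. The 3 libraries of a monkey were summed, since the monkey is the replicate, and values are CPM normalized by TMM. Summed levels of marker lists are instead CPM of single libraries scaled to total counts, without TMM. CPM is not scaled to transcript length, so levels were compared between samples and not between genes. The monkeys were compared in pairs, MK503 with MK504, MK507 with MK501 and MK506 with MK508. The 6 libraries of the first pair stood apart, with 1.09 to 1.27% of counts from the nuclear RNA MALAT1, against 0.036 to 0.235% in the other 12. In A2MK503, A2MK504 and A3MK504, POLE2 took 5.16 to 5.59% of counts. In 4 sham libraries, A2MK501, A1MK504, A3MK501 and A1MK508, the choroid plexus gene TTR took 4.25, 0.275, 0.138 and 0.0686% of counts, and it took at most 0.0113% in the other 14. Of the astrocyte identity markers, 15 of 15 were measured and none was at 0 over the 18 libraries together. Their summed level ranged from 9850 to 15365 CPM in the ischemia libraries (median 11279) and from 7390 to 12794 CPM in the sham libraries (median 9672).

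After ischemia, 8 of the 9 measured genes had a log2 fold change above 0, against 47.4% of all 17522 genes tested. None of the 9 passed an adjusted p of 0.05 in the edgeR quasi-likelihood test, where 0% of all genes passed, and the smallest adjusted p of the 9 was 0.205. DESeq2 called 5 of the 9 at an adjusted p under 0.05, SERPINA3, CHI3L1, CP, CD109 and SPARC, beside 6.23% of the 17630 genes to which it gave an adjusted p. At an unadjusted p under 0.05, 7 of the 9 were higher (SERPINA3, CHI3L1, CD109, OSMR, STAT3, SPARC and S100A10), beside 8.38% of all genes, and CP was lower, beside 8.04%. Together these were 8 of the 9 genes, beside 16.4% of all genes. Of the 9 genes, 7 were higher in ischemia in each of the 3 pairs, beside 20.4% of all genes, and CP was lower in each, beside 22.8%. The values of the 3 ischemia monkeys lay above those of all 3 sham monkeys for SERPINA3 and CHI3L1, beside 2.44% of all genes, none of the 9 lay wholly below them, beside 2.76%, and for 7 of the 9 the groups overlapped. The 9 genes had a median of 0.73 on the log2 scale, beside -0.02 for all genes tested. The number of the 9 higher at an unadjusted p under 0.05 depended on the fit, as did the share of all genes. It was 2 without the pair block, beside 0.633% of all genes, 1 without the A1 fragments, beside 2.49%, 4 without the A2 fragments, beside 6.22%, and 4 without the 3 libraries high in POLE2, beside 9.17%. It was 4 without MK503, MK504, MK507 or MK501, beside 11.8, 12.1, 3.95 and 4.27% of all genes in that order. With the pair as a block, leaving out either monkey of a pair leaves the other pairs to set the fold change. The 2 monkeys of a pair are therefore not separate checks. The plots of levels by monkey and of fold changes show these values.

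**Figure D1:**
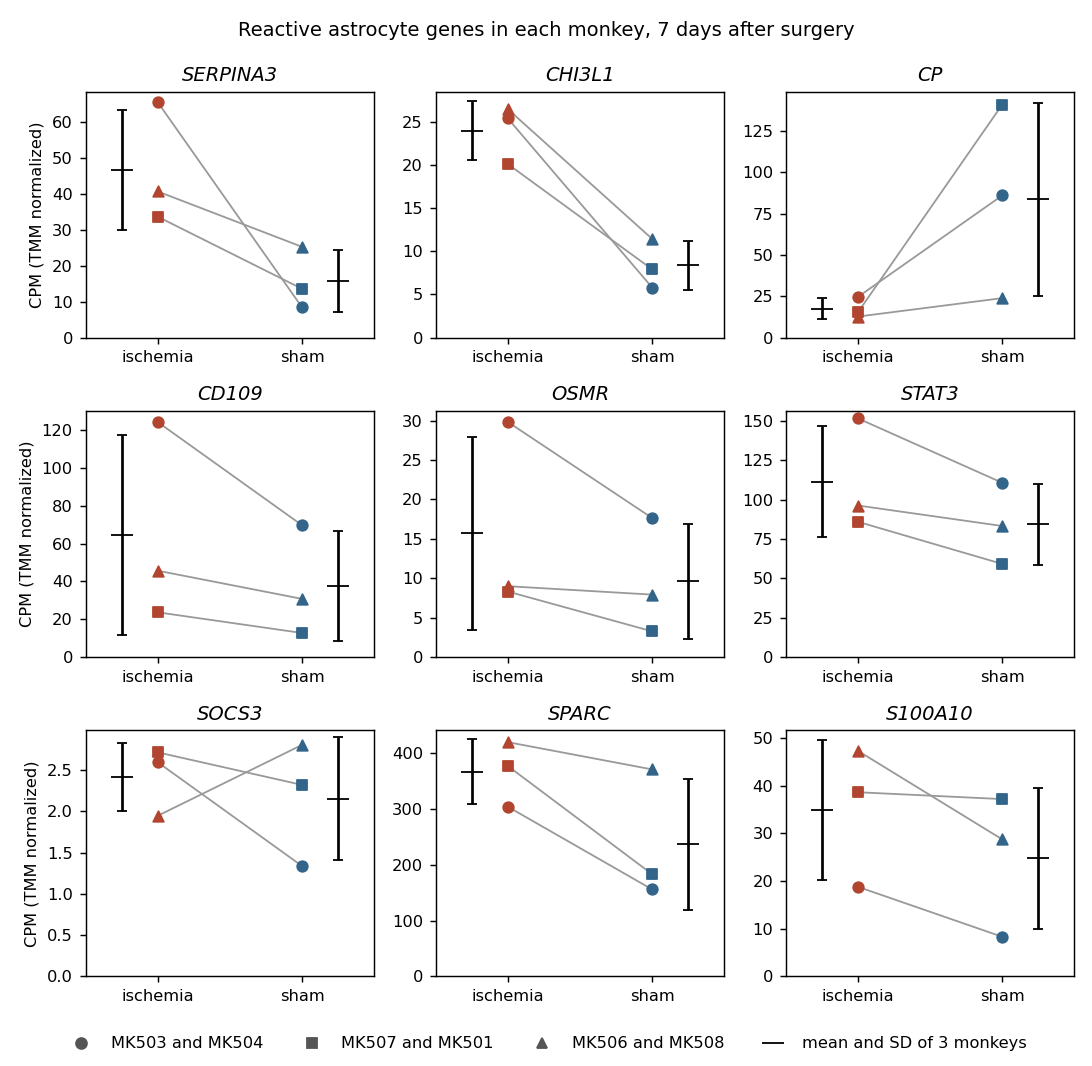
Each panel plots the TMM-normalized CPM of a gene in the 3 ischemia monkeys (left) and the 3 sham monkeys (right), with lines joining paired monkeys and bars for the mean and SD. SERPINA3 and CHI3L1 are the only genes of the 9 whose ischemia values all lie above the sham values, and CP is the only one lower in ischemia in every pair.

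**Figure D2:**
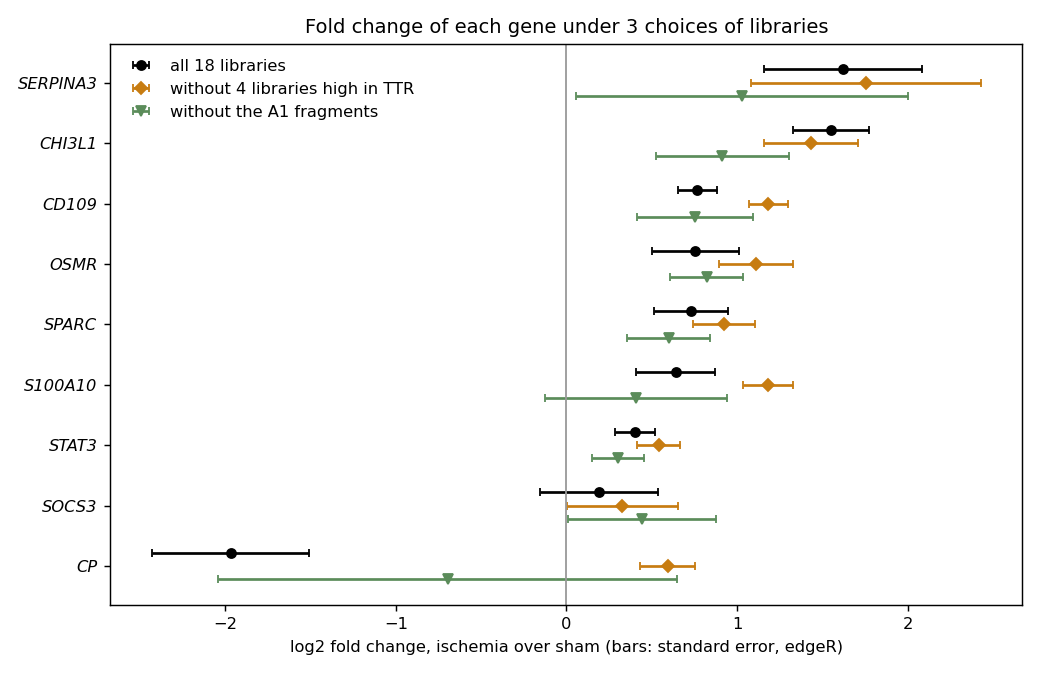
Log2 fold changes of ischemia over sham are shown for the 9 genes under 3 choices of libraries, with standard errors from edgeR. The choices are all 18 libraries, without the 4 libraries with TTR above 0.05% of counts, and without the A1 fragments. With all 18 libraries the estimates run from 1.62 for SERPINA3 down to -1.97 for CP. CP is the only gene of the 9 to change sign, at 0.59 without the 4 libraries high in TTR.

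SERPINA3, the inhibitor of neutrophil cathepsin G and other serine proteases, had 65.4, 33.6 and 40.6 CPM in the ischemia monkeys MK503, MK507 and MK506, against 8.39, 13.5 and 25.2 CPM in the sham monkeys MK504, MK501 and MK508. Every ischemia monkey was above every sham monkey, and the sham monkey MK508 was the nearest to the ischemia group. The mean was 46.5 ± 16.7 CPM in ischemia and 15.7 ± 8.62 CPM in sham (SD, n = 3 each), a log2 fold change of 1.62 (SE 0.46, adjusted p = 0.238 in edgeR). The differences within pairs were 2.96, 1.31 and 0.69 on the log2 scale, all in one direction but unequal in size. Without the A1 fragments the log2 fold change of SERPINA3 was 1.03 (adjusted p = 0.835 in edgeR), and without MK503 or MK504 it was 1.00.

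CHI3L1, whose protein binds chitin without cleaving it, had 25.4, 20.1 and 26.5 CPM in MK503, MK507 and MK506 of the ischemia group, against 5.79, 7.90 and 11.4 CPM in MK504, MK501 and MK508 of the sham group. The groups did not overlap and the ischemia monkeys were close to one another. The mean was 24.0 ± 3.40 CPM in ischemia and 8.37 ± 2.85 CPM in sham (SD, n = 3 each), with a log2 fold change of 1.55 (SE 0.22, adjusted p = 0.205 in edgeR). CHI3L1 had the smallest p of the 9 genes. Its log2 fold change stayed between 1.28 and 1.73 when any 1 monkey was left out, with nearly the same value for both monkeys of a pair. Without the A1 fragments it was 0.91 (adjusted p = 0.740 in edgeR). CHI3L1 and SPARC are in the list of genes that the study picked as higher on these same samples, so that list is not independent evidence of their direction. CHI3L2, a chitinase-like relative of CHI3L1, averaged 4.97 ± 0.92 CPM in ischemia and 1.11 ± 0.20 CPM in sham (SD, n = 3 each), a log2 fold change of 2.13 (adjusted p = 0.205 in edgeR).

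The markers of oligodendrocytes moved with SERPINA3 and CHI3L1. All 10 of 10 oligodendrocyte markers were higher in ischemia with p under 0.05 before adjustment (median log2 fold change 1.65), and their summed level ranged from 1826 to 48612 CPM in the ischemia libraries (median 16275) and from 1678 to 44937 CPM in the sham libraries (median 4381). None of these 10 markers was at 0 over the 18 libraries together. Within monkeys the summed level correlated with CHI3L1 (r = 0.81) and with SERPINA3 (r = 0.68) over 18 libraries, which share 6 monkeys. Other marker lists went with these genes as well. Within monkeys the summed endothelial markers had r = 0.74 with SERPINA3 and 0.73 with CHI3L1, and the summed microglial markers r = 0.71 and 0.64. Neuron markers went the other way, with 0 of 14 above 0, 5 with p under 0.05 before adjustment, all lower, and a median of -0.58 on the log2 scale. Their summed level within monkeys correlated negatively with CHI3L1 (r = -0.71) and SERPINA3 (r = -0.61). Over all genes tested, 47.4% were above 0, and 8.38% were higher and 8.04% lower with p under 0.05 before adjustment. The part of these marker lists in the differences of SERPINA3 and CHI3L1 was not tested.

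SPARC had 304.2, 377.2 and 420.0 CPM in MK503, MK507 and MK506 of the ischemia group, against 155.8, 183.1 and 371.1 CPM in MK504, MK501 and MK508 of the sham group. Of the sham monkeys, MK508 was within the ischemia range, and MK504 and MK501 were below it. The mean was 367.1 ± 58.6 CPM in ischemia and 236.6 ± 117.2 CPM in sham (SD, n = 3 each), with a log2 fold change of 0.73 (SE 0.22, adjusted p = 0.243 in edgeR). SPARCL1, a SPARC relative made by astrocytes, averaged 1769 ± 108.7 CPM in ischemia and 1469 ± 30.5 CPM in sham (SD, n = 3 each), a log2 fold change of 0.27 (adjusted p = 0.433 in edgeR). SMOC1 and SMOC2, secreted proteins with a SPARC-like calcium-binding domain, differed in sign, with log2 fold changes of 0.92 (adjusted p = 0.265 in edgeR) and -1.04 (adjusted p = 0.232).

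CP was the exception among the secreted genes. It had 24.6, 15.3 and 12.7 CPM in MK503, MK507 and MK506 of the ischemia group, against 86.0, 141.0 and 23.8 CPM in MK504, MK501 and MK508 of the sham group. The groups overlapped only where MK503 was just above MK508, and the sham monkeys were widely spread. The mean was 17.5 ± 6.24 CPM in ischemia and 83.6 ± 58.6 CPM in sham (SD, n = 3 each), with a log2 fold change of -1.97 (SE 0.46, adjusted p = 0.212 in edgeR). Without the A1 fragments it was -0.70 (adjusted p = 0.929). In rodents the choroid plexus epithelium also makes ceruloplasmin, and CP was set beside the choroid plexus markers in each library.

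The highest CP values of the sham group lay in the libraries with the most TTR. CP had 446.9, 237.0, 45.2 and 29.2 CPM in A2MK501, A1MK504, A1MK508 and A3MK501, the 4 sham libraries with TTR above 0.05% of counts. The other libraries held 2.51 to 40.7 CPM in ischemia (median 14.6, n = 9) and 3.97 to 17.8 CPM in sham (median 10.1, n = 5). The summed level of 10 choroid plexus markers ranged from 108.6 to 630.6 CPM in the ischemia libraries (median 261.5). In the sham libraries it ranged from 68.2 to 70717 CPM (median 364.5). None of the markers was at 0 over the 18 libraries together. Of the 10 markers, 7 were lower with p under 0.05 before adjustment, beside 8.04% of all genes. At the same threshold 1, the water channel gene AQP1, was higher, beside 8.38%. The median of the list was -2.37 on the log2 scale. CP followed that summed level with r = 0.90 over the 18 libraries and r = 0.95 within monkeys, as the plot of CP against choroid plexus markers shows. Without the 4 libraries, CP had a log2 fold change of 0.59 in place of -1.97 (SE 0.16, adjusted p = 0.151 in edgeR), so its direction turned. Then 8 of the 9 genes were higher at an unadjusted p under 0.05, beside 11.3% of all genes. All 4 are sham libraries, so the paired monkeys were left with unlike fragments. With the same fragments of the paired monkeys left out too, CP was at 0.92 (adjusted p = 0.211 in edgeR). In that fit 7 of the 9 were higher at an unadjusted p under 0.05, beside 9% of all genes.

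**Figure D3:**
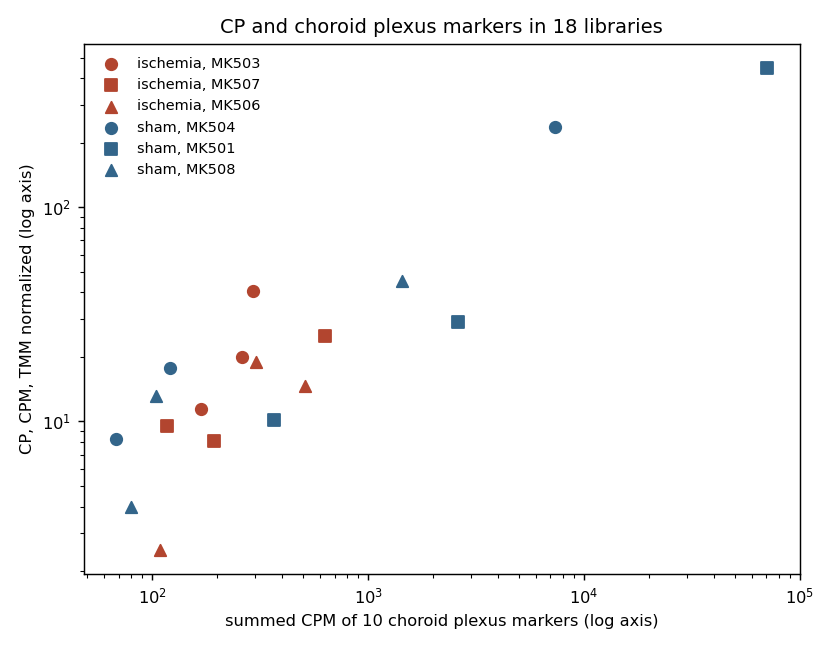
TMM-normalized CP in each of the 18 libraries is plotted against the summed CPM of 10 choroid plexus markers, which is without TMM. Both axes are log, and ischemia and sham libraries have different colors. The sham libraries A2MK501 and A1MK504 stand at the upper right with 446.9 and 237.0 CPM of CP, and the 9 ischemia libraries lie between 2.51 and 40.7 CPM.

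CD109, a glycoprotein of the alpha-2-macroglobulin family anchored in the cell membrane, had 124.4, 23.6 and 45.7 CPM in MK503, MK507 and MK506 of the ischemia group, against 69.7, 12.7 and 30.7 CPM in MK504, MK501 and MK508 of the sham group. Each ischemia monkey was above its own paired sham monkey, though the groups overlapped and the first pair was the highest in both. The mean was 64.5 ± 53.0 CPM in ischemia and 37.7 ± 29.2 CPM in sham (SD, n = 3 each), with a log2 fold change of 0.77 (SE 0.12, adjusted p = 0.205 in edgeR). The differences within pairs were close, at 0.84, 0.90 and 0.57 on the log2 scale. Without the 3 libraries high in POLE2 the log2 fold change of CD109 was 0.48, and without the 4 libraries with TTR above 0.05% of counts it was 1.18. The 3 transcript rows of CD109 gave log2 fold changes of 0.76 to 0.77, and they share reads. A2ML1, another member of the family, had a log2 fold change of 0.63 (adjusted p = 0.225 in edgeR) and A2M one of 0.08 (adjusted p = 0.820).

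S100A10 had 18.8, 38.7 and 47.4 CPM in MK503, MK507 and MK506 of the ischemia group, against 8.29, 37.2 and 28.8 CPM in MK504, MK501 and MK508 of the sham group. The ischemia monkey was higher in each pair, but by only 0.05 on the log2 scale in the second, where the sham library A2MK501 reached 83.0 CPM. The mean was 34.9 ± 14.6 CPM in ischemia and 24.8 ± 14.9 CPM in sham (SD, n = 3 each), with a log2 fold change of 0.64 (SE 0.23, adjusted p = 0.287 in edgeR). A2MK501 was the library with the most TTR, and without the 4 libraries with TTR above 0.05% of counts the log2 fold change of S100A10 was 1.18. It was 0.39 without MK503 or MK504, 0.96 without MK501, 0.41 without the libraries high in POLE2 and 0.41 without the A1 fragments. S100B, another calcium-binding S100 protein of astrocytes, averaged 913.7 ± 302.7 CPM in ischemia and 617.0 ± 285.5 CPM in sham (SD, n = 3 each), a log2 fold change of 0.65 (adjusted p = 0.245 in edgeR).

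OSMR, the receptor gene, had 29.8, 8.30 and 8.97 CPM in MK503, MK507 and MK506 of the ischemia group, against 17.6, 3.25 and 7.90 CPM in MK504, MK501 and MK508 of the sham group. In both groups the monkey of the first pair was the highest. The mean was 15.7 ± 12.2 CPM in ischemia and 9.59 ± 7.34 CPM in sham (SD, n = 3 each), with a log2 fold change of 0.76 (SE 0.25, adjusted p = 0.268 in edgeR). The differences within pairs of OSMR were 0.76, 1.35 and 0.18 on the log2 scale, and without MK507 or MK501 its log2 fold change was 0.47 or 0.49.

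STAT3 had 151.6, 85.9 and 96.2 CPM in MK503, MK507 and MK506 of the ischemia group, against 110.7, 59.1 and 83.2 CPM in MK504, MK501 and MK508 of the sham group. The groups overlapped, and each ischemia monkey was above its pair. The mean was 111.2 ± 35.3 CPM in ischemia and 84.3 ± 25.8 CPM in sham (SD, n = 3 each), with a log2 fold change of 0.40 (SE 0.12, adjusted p = 0.238 in edgeR). All 3 STAT3 transcript rows gave 0.40, and they share reads. The mRNA level does not show how much of the protein was phosphorylated.

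SOCS3 was the gene of the 9 nearest to no difference. It had 2.60, 2.72 and 1.95 CPM in MK503, MK507 and MK506 of the ischemia group, against 1.34, 2.32 and 2.81 CPM in MK504, MK501 and MK508 of the sham group, so that the third pair went against the first and the second. The mean was 2.42 ± 0.41 CPM in ischemia and 2.15 ± 0.75 CPM in sham (SD, n = 3 each), with a log2 fold change of 0.19 (SE 0.35, adjusted p = 0.805 in edgeR). A library held 7 to 143 counts of SOCS3, so single libraries are read with counting error in mind. Without MK503 or its pair MK504 the log2 fold change was -0.15, without MK506 or its pair MK508 it was 0.57, and without the A3 fragments it was -0.02.

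The rest of the interleukin-6 family route was counted from a list. Of 31 listed genes of the JAK-STAT3 cytokine axis, 28 were tested. Of these, 19 had a log2 fold change above 0, beside 47.4% of all genes, and the median was 0.18. Before adjustment 1 was higher and 2 were lower with p under 0.05, beside 8.38 and 8.04% of all genes, and 0 passed after it. The gene that was higher was IL6ST, which encodes gp130, at 140.2 ± 174.1 CPM in ischemia and 81.9 ± 114.7 CPM in sham (SD, n = 3 each), a log2 fold change of 1.23 (SE 0.30, adjusted p = 0.218 in edgeR). The lower ones were SOCS2, a feedback inhibitor of growth hormone and cytokine receptors, at 15.8 ± 4.54 CPM in ischemia and 25.3 ± 7.53 CPM in sham with a log2 fold change of -0.69 (adjusted p = 0.221 in edgeR), and BCL3, an I-kappa-B family protein, at -0.68 (adjusted p = 0.248). Also named for their mean CPM, which is not scaled to length, were LIFR, the receptor gene of leukemia inhibitory factor, with a log2 fold change of 0.24 (adjusted p = 0.688 in edgeR), PTPN11, a phosphatase of the receptor complex, with 0.10 (adjusted p = 0.761), and JAK1, the kinase, with 0.23 (adjusted p = 0.347).

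Other genes of the reactive state were also mixed. Of 40 listed, 38 were tested, 24 had a log2 fold change above 0, beside 47.4% of all genes, and the median was 0.10. Before adjustment 6 were higher and 2 lower with p under 0.05, beside 8.38 and 8.04% of all genes, and 0 passed after it. The higher ones were GFAP (log2 fold change 1.25), the hyaluronan receptor gene CD44 (1.72), the matrix gene TNC (0.81), the galectin gene LGALS3 (0.73), the chaperone gene CRYAB (1.17) and the chemokine gene CXCL10 (1.30), with adjusted p of 0.205 to 0.282 in edgeR. The lower ones were TM4SF1 (-1.45, adjusted p = 0.215 in edgeR) and the sphingosine receptor gene S1PR3 (-0.65, adjusted p = 0.285). GFAP averaged 5834 ± 1307 CPM in ischemia and 2594 ± 1237 CPM in sham (SD, n = 3 each), and MAOB, at 0.23 (adjusted p = 0.380 in edgeR), was named for its mean CPM.

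Among 40 relatives of the 9 genes and LCN2 by family, 38 were tested. Of these, 23 had a log2 fold change above 0, beside 47.4% of all genes, and the median was 0.11. Before adjustment 6 were higher and 3 lower with p under 0.05, beside 8.38 and 8.04% of all genes, and 0 passed after it. Those not yet described were TF, the iron carrier transferrin (log2 fold change 1.53, adjusted p = 0.205 in edgeR), STAT2 (0.35, adjusted p = 0.238), RBP4, a lipocalin that carries retinol (-0.64, adjusted p = 0.216), and LCN1, another lipocalin (-2.46, adjusted p = 0.245). Named for their mean CPM, PTGDS, a lipocalin enzyme, was at 0.40 (adjusted p = 0.415) and SLC22A17, the receptor of LCN2, at -0.11 (adjusted p = 0.781). TF is also a gene of oligodendrocytes, whose markers were higher in ischemia.

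The other marker lists are given as background to these levels. Of all genes tested, 8.38% were higher and 8.04% lower with p under 0.05 before adjustment. With p under 0.05 before adjustment, 2 of 15 astrocyte identity markers were higher and 0 lower (median log2 fold change 0.15), 0 of 15 markers of microglia and macrophages were higher or lower (-0.15), and 0 of 8 ependymal markers were (0.10). Of the markers of endothelium, 1 of 13 was higher and 4 were lower (-0.33), of pericytes and smooth muscle 3 of 10 were lower (-0.22), and of fibroblasts and meninges 1 of 10 was higher (-0.19). For neutrophils, which make LCN2 and carry cathepsin G, 5 of 12 markers passed the filter and 1, LTF, was higher, and their summed level was 2.93 to 6.68 CPM in the ischemia libraries and 3.30 to 8.82 CPM in the sham libraries.

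Levels of these genes varied between the fragments of a monkey, by a share of the variance that differed from gene to gene. Random variation between libraries alone would also put a share between fragments and between pairs, and no share for all genes is given. The shares below therefore do not show whether fragments or pairs differ beyond chance. The share of the variance of log2 CPM found between fragments of a monkey was 80.3% for SOCS3, 76.2% for CP, 63.2% for S100A10, 53.5% for SERPINA3, 41.3% for CHI3L1, 40.3% for CD109, 35.9% for SPARC, 31.8% for STAT3 and 20.0% for OSMR. Between pairs lay 66.5% for OSMR, 54.3% for CD109 and 52.4% for STAT3, but 5.02% for SERPINA3 and 6.63% for CHI3L1. Whether an A number marks the same position in every monkey is not stated.

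The separation of the groups in CHI3L1 and SERPINA3 was clearest in the A1 fragments. In A1, CHI3L1 had 32.4, 28.7 and 52.4 CPM in MK503, MK507 and MK506 of the ischemia group, against 5.45, 7.46 and 6.80 CPM in MK504, MK501 and MK508 of the sham group, and SERPINA3 had 50.9, 47.4 and 90.3 CPM in the same ischemia monkeys, against 14.2, 9.88 and 8.21 CPM in the same sham monkeys. The groups were far apart in both genes. In A3, CHI3L1 had 14.2, 6.22 and 15.2 CPM in ischemia, against 5.84, 5.90 and 21.7 CPM in sham, and SERPINA3 had 31.9, 5.59 and 17.4 CPM in ischemia, against 8.50, 4.57 and 45.3 CPM in sham. There the sham library of MK508 was the highest of the 6 in both genes. The median difference within pairs on the log2 scale was 2.56 in A1, 0.86 in A2 and 0.07 in A3 for CHI3L1, and 2.25, 0.37 and 0.29 for SERPINA3. Whether these differences between fragments go beyond chance was not tested. The oligodendrocyte markers summed to 30959, 18191 and 48612 CPM in A1 of MK503, MK507 and MK506, against 4381, 4980 and 7214 CPM in A1 of MK504, MK501 and MK508, and in A3 the sham library of MK508 had the highest sum of the 6, with 44937 CPM. The plot of libraries by fragment shows these values beside those of CD109 and S100A10.

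**Figure D4:**
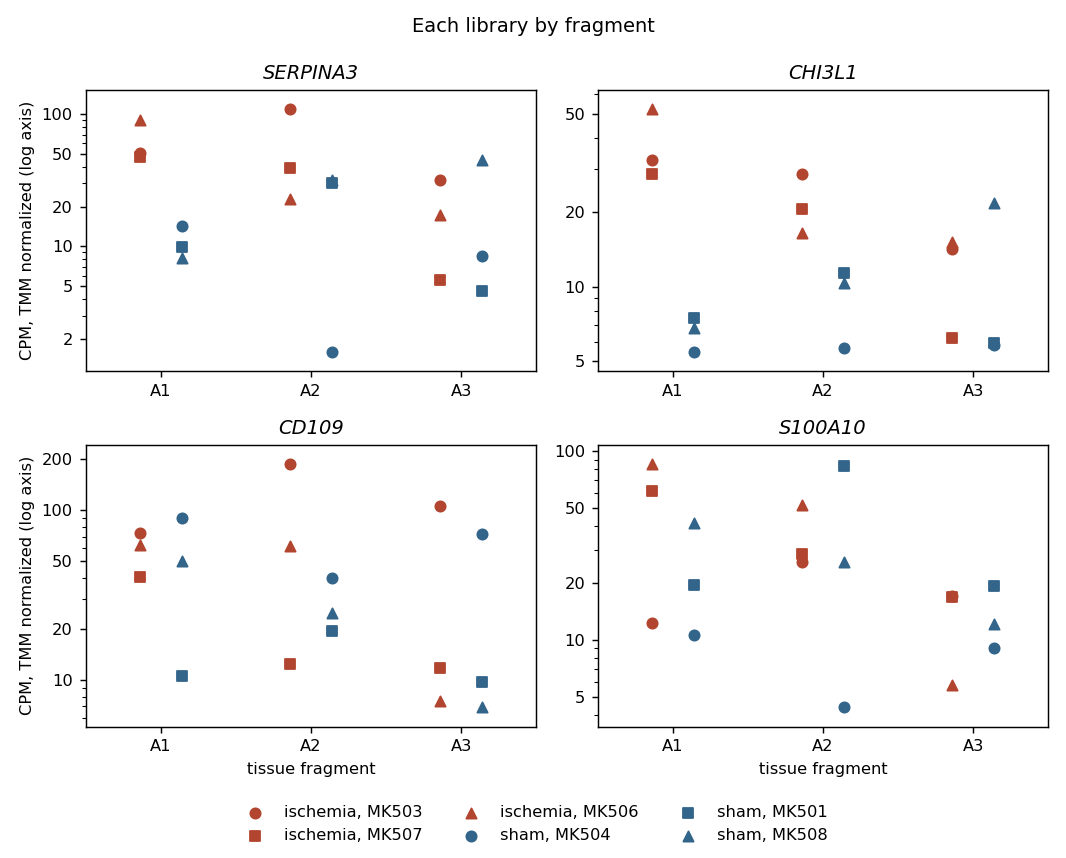
TMM-normalized CPM on log axes is shown for SERPINA3, CHI3L1, CD109 and S100A10 in each of the 18 libraries by fragment, with ischemia libraries to the left of sham libraries and marker shapes for the pairs. In A1 the 3 ischemia libraries lie above the 3 sham libraries for SERPINA3 and CHI3L1, and in A3 the sham library of MK508 is the highest for both.

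Averaged over the 6 monkeys, log2 CPM was lowest in A3 for each of the 9 genes, but this did not hold in every monkey. In MK508, A3 was the highest of the 3 fragments for SERPINA3 and CHI3L1, and in MK503, OSMR had 30.8 CPM in A3 and 22.5 CPM in A1. The log2 difference of A3 from A1 fitted by edgeR, with the monkey as a block, ran from -2.13 for CP to -0.22 for SOCS3. CD109 and S100A10 were at -1.22 and -1.23. The mean log2 CPM of CP was 4.80 in A1 and 3.33 in A3, and that of SOCS3 was 0.98 and 0.88. In the test of A1, A2 and A3 with the monkey as a block, 0 of the 9 genes passed adjustment, where 0% of 17323 genes did, and 1, SPARC (adjusted p = 0.443 in edgeR), had a p under 0.05 before adjustment, beside 11.2% of all genes. In the 9 ischemia libraries alone, 138 of 17422 genes were called and 0 of them was one of the 9. So few genes were called that this 0 is no result about the 9. The smallest adjusted p of the 9 was 0.0955 in edgeR, and 3 of them had a p under 0.05 before adjustment.

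Within monkeys most of the 9 genes varied together. Of the 36 pairs of genes, 35 had a positive correlation of log2 CPM after the mean of each monkey was taken off, 20 were above 0.5, and the median was 0.55. Without taking off the monkey means the median was 0.28. These are correlations over 18 libraries of 6 monkeys, they share library depth, and no test was made. CD109 went with OSMR (r = 0.93, and 0.94 with the monkey means left in) and S100A10 (r = 0.93, but 0.14 with them left in), and SPARC with S100A10 (r = 0.87, and 0.72) and STAT3 (r = 0.87, but 0.37). SERPINA3 and CHI3L1 went with each other (r = 0.80, and 0.88 with the means left in) and less with CD109 (r = 0.32 and 0.15) or OSMR (r = 0.25 and 0.07). The lowest was CHI3L1 with SOCS3 (r = -0.17). CP, whose mean was lower in ischemia, still went with OSMR within monkeys (r = 0.85, but 0.29 with the means left in), and OSMR with S100A10 (r = 0.86, but -0.06).

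Within monkeys, CD109 (r = 0.90), OSMR (r = 0.89), S100A10 (r = 0.80), CP (r = 0.76), SOCS3 (r = 0.75) and SPARC (r = 0.65) correlated with the summed ependymal markers. With the microglial markers went STAT3 (r = 0.84), SPARC (r = 0.85), S100A10 (r = 0.83), CD109 (r = 0.70) and OSMR (r = 0.70). Other lists were also high, so these relations are not particular to 1 list. STAT3 had r = 0.77 with the endothelial markers and 0.77 with those of fibroblasts and meninges. OSMR had r = 0.72 with the latter and 0.75 with the choroid plexus markers. The summed astrocyte identity markers had r of -0.11 to 0.35 with the 9 genes. STAT3 and SPARC correlated negatively with the neuron markers (r = -0.91 and -0.83). With the monkey means left in, the astrocyte identity r ran from -0.26 for S100A10 to 0.81 for OSMR, with 0.72 for CD109 and STAT3. The ependymal r was then 0.56 for CD109, 0.38 for OSMR, 0.62 for S100A10, 0.67 for CP, 0.65 for SOCS3 and 0.34 for SPARC. The microglial r was 0.40 for STAT3, 0.58 for SPARC, 0.52 for S100A10, 0.34 for CD109 and 0.23 for OSMR. The neuron r of STAT3 and SPARC was -0.84 and -0.53. The part of the cell makeup of a fragment in these relations was not tested.

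**Figure D5:**
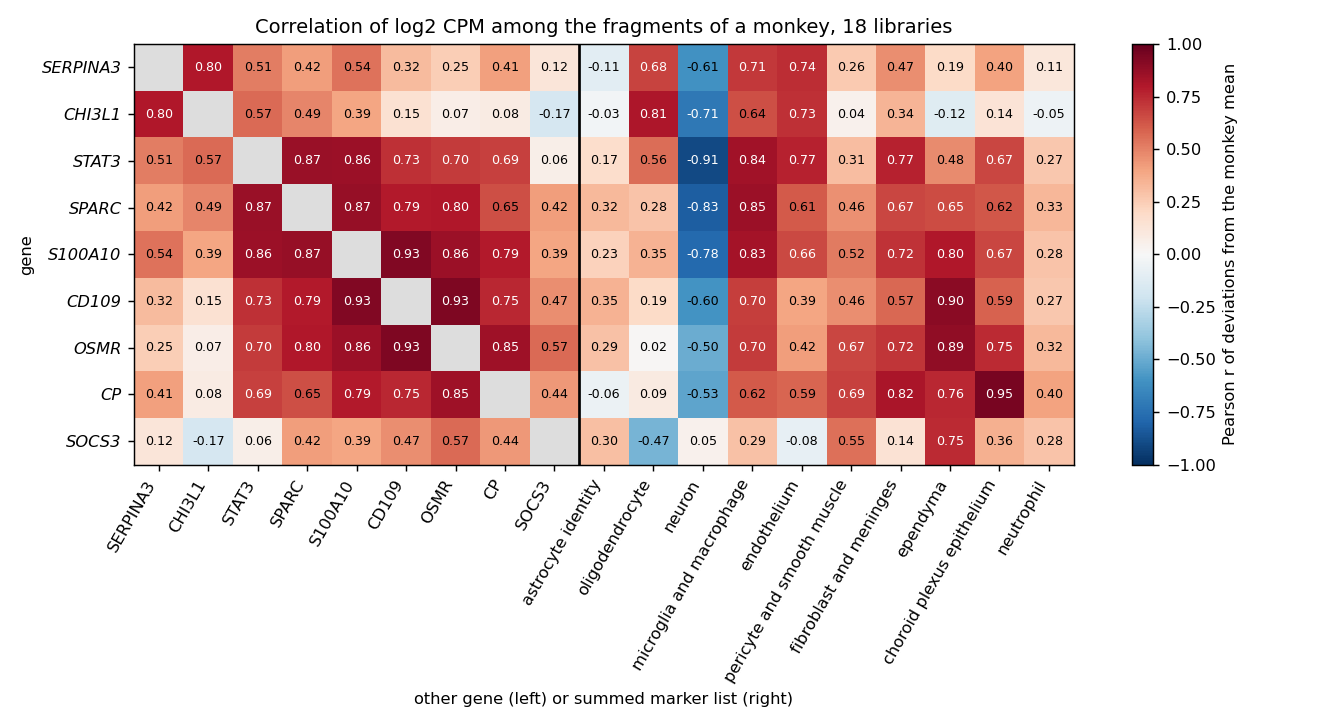
The color of each square gives Pearson's r over 18 libraries, after the mean log2 value of each monkey was taken off. Rows are the 9 genes. Columns left of the black line are the same genes, and columns right of it are summed marker lists. CD109, OSMR and S100A10 form a block of high values up to 0.93, and SERPINA3 and CHI3L1, with 0.80 between them, stand partly apart. Other pairs are high too, such as SPARC with S100A10 (0.87) and with STAT3 (0.87), and CP with OSMR (0.85).

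For the 3 genes of the largest fold changes, the genes with the most similar profile over the 18 libraries were looked up among all genes tested. SERPINA3 was most like GFAP (r = 0.88), IL17RB (0.87) and CD44 (0.86). CHI3L1 was most like TRAFD1 (r = 0.91), GSN (0.91), which encodes the actin-severing protein gelsolin, and SRPX (0.90). CP was most like CAB39L (r = 0.97), SULF1 (0.96), a sulfatase of heparan sulfate, and PROS1 (0.96), which encodes protein S. Monkeys and groups both enter these correlations.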

How the data were processed

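Total RNA from 18 SVZa fragments was made into TruSeq libraries, a kit that does not mark strand, and sequenced as reads of 50 bases. The authors used CASAVA (1.8.2) for base calling, FastQC (0.10.0) for quality, TopHat2 (2.0.8) for alignment to the rhesus macaque genome and bedtools (2.16.2) for counting. The deposited values are whole-number read counts for human RefSeq transcripts placed on that genome, without normalization. Reads shared between transcripts or overlapping genes cannot be told apart, so only 1 transcript per gene was used. The 3 libraries of each monkey were not copies of one another (chi-square divided by its degrees of freedom was at least 10.5) and were summed, giving 60453769 to 190678361 counts per ischemia monkey and 69395172 to 155774246 per sham monkey, so that the spread between monkeys sets the precision except for SOCS3.

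Ischemia and sham were compared with edgeR (4.0.16) in R (4.3.3): filterByExpr, TMM, the monkey pair as a block and a robust quasi-likelihood F test, a prior count of 2 on the log scale, Benjamini-Hochberg adjustment over 17522 genes and a threshold of 0.05. Pairs are not named in the labels. Each numbered column of a supplementary table matched 1 monkey over 1749 transcripts, and same-numbered monkeys deviated together (r = 0.9, 0.8 and 0.71 over 16361 genes). Monkeys of different number gave r of -0.83 to 0.68, with MK506 and MK501 at 0.68 and MK507 and MK508 at 0.51, so this measure alone hardly sets apart the pairs of MK507 and MK506. Fragments were compared with the monkey as a block. DESeq2 (1.42.0), limma (3.58.1), other scalings and filters, other transcripts and leaving out monkeys, fragments or libraries were tried, and leaving out libraries with TTR above 0.05% or POLE2 above 1% of counts was chosen after seeing the data.

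The genes and lists were chosen with earlier results of these data known. Named are all members. Of each pathway list, the 4 genes with the highest mean CPM and every gene with an unadjusted p under 0.05 are named. Of each marker list, the 3 genes with the highest mean CPM are. For each of the 3 members of largest fold change, the 3 most correlated genes that are not members are named. Some are given in counts only.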

Additional observations from a re-analysis of the deposited data

Results flagged for a closer look

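In the 9 sham libraries, the highest CPM stood far from the others by Dixon's test for 3 of the 9 genes. The test was made on CPM, not on the log scale, in 18 groups of 9 libraries. Its chance rate of about 1 in 20 groups holds only for normally distributed and independent values. The 3 libraries of a monkey are not independent, and the log scale was not tested, so no conclusion is drawn from these flags. CHI3L1 reached 21.7 CPM in A3MK508, against a median of 6.80 CPM, in the sham library with the highest sum of oligodendrocyte markers (44937 CPM). SPARC reached 509.0 CPM in A1MK508, against a median of 160.2 CPM, in the sham library with the highest sum of ependymal markers (1711 CPM). A1MK508 also had the highest sum of microglial markers (591.9 CPM) and of neutrophil markers (8.82 CPM). S100A10 reached 83.0 CPM in A2MK501, against a median of 19.2 CPM, in the library with the most TTR (4.25% of counts). The part of these markers in the 3 values was not tested.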

How the results depend on the processing

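Genes called at an adjusted p under 0.05 numbered 0 in edgeR with the pair block, where 2878 had an unadjusted p under 0.05, but 1098 with DESeq2, 848 with limma and a random monkey effect, 892 with the 18 libraries taken as 9 against 9, 1 without the A2 fragments and 282 without A3, and 0 to 15 when 1 monkey was left out. Of the 9 genes, 5 were called by DESeq2, beside 6.23% of the genes to which it gave an adjusted p. Limma called 2, CHI3L1 and SPARC, beside 5.19% of all genes, and so did the fit as 9 against 9, beside 5.45%. Without A3 the 2 called were CHI3L1 and CD109, beside 1.64%. The count of members higher at an unadjusted p under 0.05 was 7, beside 8.38% of all genes. It became 2 with no replicate block (0.633%), 4 as 9 against 9 (10.7%), 1 without A1 (2.49%) and 4 without A2 (6.22%). Without the 3 libraries high in POLE2 it was 4 (9.17%), and 4 to 6 when 1 monkey was left out (3.95 to 12.1%). SOCS3 turned to -0.15 without MK503 or MK504, with a range over monkeys left out of -0.15 to 0.57, and to -0.025 without A3. CP turned to 0.59 without the 4 libraries high in TTR and to 0.92 without these and the same fragments of the paired monkeys. The cause of these changes was not tested. Scaling to equal totals moved the median of all genes to 0.04 and the genes with an unadjusted p under 0.05 to 1837 higher and 1024 lower, beside 1469 and 1409. Only 3 monkeys a group limit all of these tests, and 7 counts of SOCS3 in a library limit its values.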
